A study of Homo sapiens with 12 samples.

Results

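The replication licensing genes examined here are MCM2, MCM3, MCM4, MCM5, MCM6 and MCM7, which encode the subunits of the replicative helicase ring, the loaders CDC6 and CDT1, and CDC45 and MCM10, which act when the loaded ring is switched on. They were found by gene symbol in the deposited count table, as 10 of 62703 genes, and all 10 passed the filters on low counts that left 17577 genes in the comparison of clones and 15530 genes in the comparisons of libraries. RNA-seq was done on microglia made from the WTC11 induced pluripotent stem cell line (iMGLs). WT denotes the isogenic control clones (J, K, L), and LACTB KO denotes clones A, B and C, edited with CRISPR in LACTB, the gene of a mitochondrial protein of the beta-lactamase family. Each clone comes from 1 parental line and was differentiated 2 times, which gave 12 libraries, named by clone and differentiation (J1 is WT clone J, differentiation 1). All cells were grown in IL34 (100 ng/ml), TGFb (50 ng/ml) and MCSF (25 ng/ml), received CX3CL1 and CD200 (100 ng/ml each) from day 24, were collected at day 27 and had no further treatment.

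Before DNA is copied, the origin recognition complex, CDC6 and CDT1 place the MCM ring on origins during G1, which licenses them for a single round of firing. CDC45 and the GINS complex then join the ring, and MCM10 is needed for the helicase to open the strands. Transcription of these genes is under E2F factors and goes up as cells pass from G1 into S phase. Mature microglia divide rarely, while their precursors in culture divide more often, so transcripts of the licensing machinery are commonly read together with those of other cell cycle genes. In bulk libraries, fewer dividing cells and less RNA per cell cannot be told apart.

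The promoters are shown because the levels of the 10 genes moved together across libraries. RefSeq promoter windows (GRCh38.p14), each from 250 bases before to 50 bases after a gene start, were found for 8 of the 10 genes (12 windows, as MCM7 and CDC45 have 3 each) and not for MCM4 or MCM5. An E2F motif was searched as TTTCCCGC, TTTCGCGC, TTTGCCGC or TTTGGCGC on both strands. It was found in windows of 6 of these 8 genes (MCM2, MCM3, MCM6, MCM7, CDC6 and CDT1). Counted by window, it was in 6 of these 12 and in 3.31% of 35116 windows of all genes. The windows of MCM2, MCM6, CDC6 and CDT1 are printed on the strand of the gene, from 100 bases before to 25 bases after the gene start, with E2F matches in capitals. They are 2 ring subunits on different chromosomes and both loaders. MCM2 and MCM6 hold 2 matches each in this stretch, against 1 in MCM3 and at most 1 in a window of MCM7. Every window printed holds a match, and windows without a match are not printed.
MCM2, chr3:127598311-127598435, plus strand: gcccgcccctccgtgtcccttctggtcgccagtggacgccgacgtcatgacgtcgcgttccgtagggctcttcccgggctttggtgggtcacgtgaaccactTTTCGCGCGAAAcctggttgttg
MCM6, chr2:135876419-135876543, minus strand: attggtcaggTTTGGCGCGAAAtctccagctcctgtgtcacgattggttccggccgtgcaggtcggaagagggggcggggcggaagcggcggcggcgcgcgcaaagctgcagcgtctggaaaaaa
CDC6, chr17:40287779-40287903, plus strand: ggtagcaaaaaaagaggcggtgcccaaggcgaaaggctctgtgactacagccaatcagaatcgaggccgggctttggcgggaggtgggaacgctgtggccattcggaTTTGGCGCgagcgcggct
CDT1, chr16:88803689-88803813, plus strand: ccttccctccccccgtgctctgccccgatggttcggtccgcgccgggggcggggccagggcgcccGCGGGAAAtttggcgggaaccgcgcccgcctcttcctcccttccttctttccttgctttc

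In MCM2 and in MCM6 the capitals are 2 overlapping matches, 1 on each strand, starting at bases 3 and 7 of MCM2 and at positions -90 and -86 of MCM6, where the gene's first base is 1 and the base before it -1. MCM6 held a further overlapping pair at -152 and -148. The CDC6 match started at base 8 and the CDT1 match at -35. In MCM3 matches started at -174 and -4, and in MCM7 at -187 and -9. The windows of MCM10 and CDC45 held none of these spellings, and both held the CCAAT box (CCAAT, either strand), which 34.6% of all windows hold. The letters TTTGAA, the core of the CHR element found in promoters of many mitotic genes, were in none of the members' windows and in 15.2% of all windows. These are matches of letters, and no binding was measured.

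Library totals ran from 24153233 to 28406943 estimated counts (median 27456868). Levels are given as CPM, the count divided by the TMM-scaled size of the library. LACTB, the check of the edit, was between 71.6 and 98.1 CPM in the WT libraries and between 7.49 and 51.6 CPM in the LACTB KO libraries. Clone B kept more LACTB transcript (44.4 and 51.6 CPM) than clones A and C (at most 9.78 CPM). LACTB itself was not called between genotypes on 3 against 3 clones (log2 difference -1.87 ± 0.67, SE, edgeR, adjusted p = 0.735). Microglial markers were high, with CSF1R between 1383 and 2041 CPM and CX3CR1 between 525.5 and 1074 CPM, while TMEM119 (median 0.772 CPM) and SALL1 (median 0.408 CPM) were low. Stromal markers (15 genes) summed to between 30.0 and 2927 CPM in WT libraries and between 26.9 and 573 CPM in LACTB KO libraries, the highest being J1 and K2 (2163 CPM). Of the defining stromal genes, DCN and PDGFRA were at 0 counts in 4 libraries each and LUM in 1. The libraries are separate differentiations of clones, so p-values between genotypes, on clone sums, measure the spread between clones of 1 line. In the comparisons on 12 libraries with clone in the fit, p-values measure the spread between differentiations within clones.

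Among the ring subunits MCM2 (chromosome 3, 127598410 to 127622436, plus strand, GRCh38) was measured between 31.7 and 95.0 CPM in WT libraries (median 58.7) and between 51.2 and 119 CPM in LACTB KO libraries (median 67.2). The genotypes overlapped, since K1 (95.0 CPM) lay above 5 of the 6 LACTB KO libraries. MCM3 (chromosome 6, 52264014 to 52284881, minus strand) was between 63.9 and 147.5 CPM in WT (median 95.2) and between 83.1 and 174 CPM in LACTB KO (median 111). MCM4 (chromosome 8, 47960185 to 47978160, plus strand), which with MCM6 and MCM7 makes up the part of the ring with helicase activity on its own, was between 53.2 and 149 CPM in WT (median 90.6) and between 74.1 and 176 CPM in LACTB KO (median 104). For each of these genes J1 was the lowest library, B1 the highest and K1 the next highest.

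MCM5 (chromosome 22, 35400134 to 35425431, plus strand), which sits beside MCM2 at the gate where the ring opens for loading, had the highest CPM of the 10 genes. It was between 102.3 and 247 CPM in WT (median 169.7) and between 157 and 282 CPM in LACTB KO (median 193). It was the 1 gene whose lowest library was J2 and not J1 (104 CPM), and the other 4 WT libraries were at 149.9 CPM or more. MCM6 (chromosome 2, 135839626 to 135876443, minus strand) was between 53.2 and 126 CPM in WT (median 76.9) and between 69.9 and 156 CPM in LACTB KO (median 91.2). MCM7 (chromosome 7, 100092233 to 100101940, minus strand) was between 82.5 and 199.7 CPM in WT (median 123) and between 111 and 242 CPM in LACTB KO (median 149). As for the other subunits, the ranges of the genotypes overlapped while the medians of LACTB KO were higher.

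The loaders had lower counts than the ring. CDC6 (chromosome 17, 40287879 to 40304657, plus strand), an ATPase that joins the origin recognition complex, was between 8.38 and 28.5 CPM in WT (median 15.5) and between 15.2 and 34.6 CPM in LACTB KO (median 20.7). CDT1 (chromosome 16, 88803789 to 88809258, plus strand), which brings the ring to the origin and is held in check by geminin, was between 5.84 and 20.9 CPM in WT (median 12.8) and between 11.3 and 30.4 CPM in LACTB KO (median 16.7). J1 was lowest and B1 highest for both loaders. CDT1 in B1 stood apart from the other LACTB KO libraries, of which the next was A1 at 17.7 CPM.

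The genes that act on the loaded ring were at similar counts. CDC45 (chromosome 22, 19479457 to 19520612, plus strand) was between 6.64 and 23.4 CPM in WT (median 11.2) and between 9.78 and 31.2 CPM in LACTB KO (median 13.8). MCM10 (chromosome 10, 13161558 to 13211110, plus strand), which despite its name is no part of the ring, was between 4.36 and 19.8 CPM in WT (median 10.3) and between 9.73 and 27.1 CPM in LACTB KO (median 12.6). MCM10 had the widest span of the 10 genes, 6.20-fold between its highest and lowest library, against 2.72-fold for MCM3, the narrowest. Over all genes tested without a 0 the median span was 1.72-fold.

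**Figure D1:**
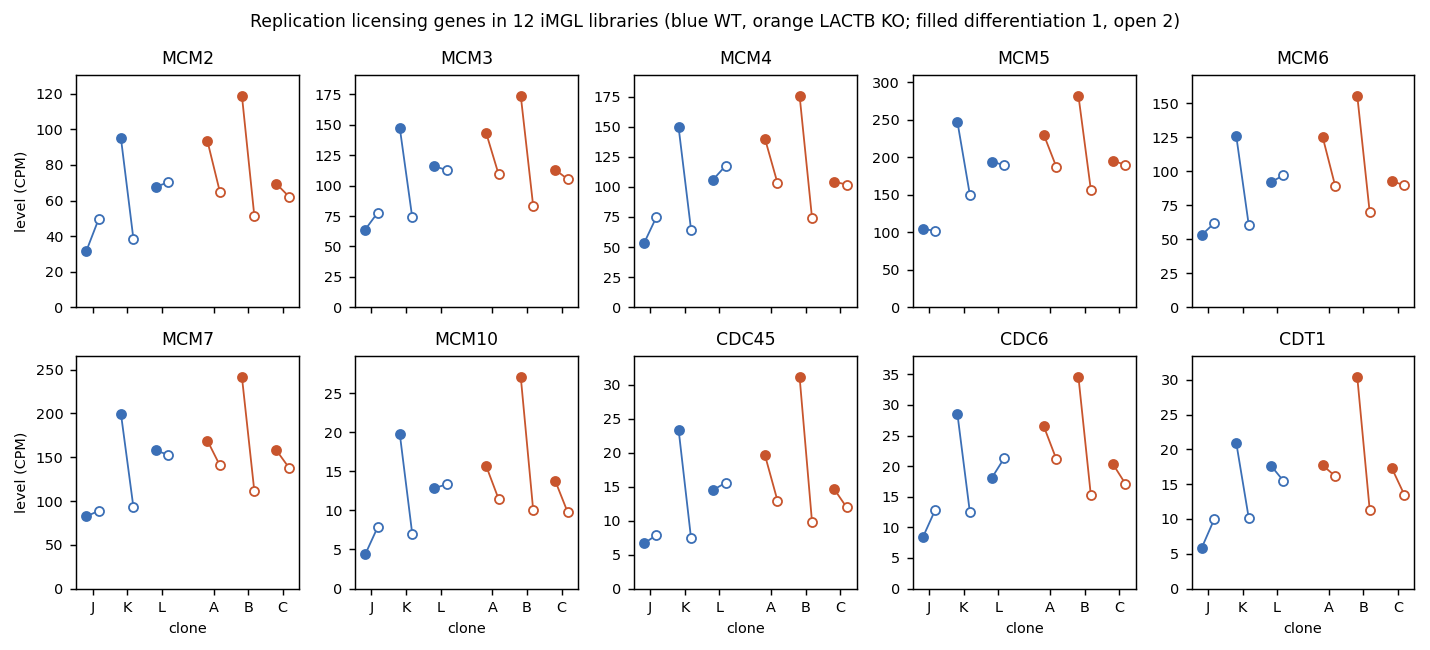
Level of each licensing gene in CPM (vertical axes, each from 0) by clone, with WT clones in blue and LACTB KO clones in orange; filled points are differentiation 1, open points differentiation 2, and a line joins the 2 libraries of a clone. The drop from filled to open point in clones K and B recurs in all 10 panels, and clone J is the lowest clone in each by mean log2 CPM.

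The order of the libraries was almost the same for every gene. B1 was the highest library for 10 of 10 genes (it was highest for 10.8% of all genes tested), K1 was next for all 10 and A1 after it. J1 was lowest for 9 of 10 (13.1% of all genes tested). Pairwise Pearson correlations over the 12 libraries ran from 0.904 (MCM5 and MCM2) to 0.996, with a median of 0.969 over 45 pairs, as a description of libraries that share clones and differentiations. MCM5 had the lowest correlation with the mean of the other 9 genes (0.943) and MCM3 the highest (0.994).

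J1 and K2, which were low for the licensing genes, were the libraries with the most stromal transcripts, and K1 and B1, which were high, had summed stromal levels of 30.0 and 85.6 CPM. J2 (313 CPM stromal) and B2 (573 CPM) were also low for the licensing genes. The order was not general, since L1 (568 CPM), L2 (43.2 CPM) and C2 (26.9 CPM) lay in the middle for them. All 14 stromal markers tested had higher levels in WT clones, 11 at an unadjusted p under 0.05 and none called (edgeR). By clone, their mean log2 CPM was highest in J (5.37) and K (4.97), while B (3.38) lay above L (3.14). The stromal covariate therefore overlaps with genotype and with clone J. Fits with the stromal level as a covariate are given beside the comparisons.

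For levels between genes, CPM was divided by the length of the Ensembl canonical transcript and scaled to the same total in each library (TPM). MCM7 came first, at 137 ± 43.3 TPM (SD, n = 12 libraries), followed by MCM5 at 126 ± 35.03 TPM, MCM3 at 84.0 ± 24.0 TPM, MCM4 at 60.7 ± 20.0 TPM, MCM6 at 57.9 ± 18.1 TPM and MCM2 at 46.2 ± 16.2 TPM. Below the ring were CDC45 at 18.2 ± 8.57 TPM, CDT1 at 13.7 ± 5.36 TPM, CDC6 at 10.1 ± 3.63 TPM and MCM10 at 6.55 ± 3.01 TPM. Each gene was above the next in all 12 libraries, except MCM7 over MCM5 (10 of 12) and MCM4 over MCM6 (9 of 12), so those neighbours did not separate. The order rests in part on the length used. With the union of all exons, MCM3 came first (121 TPM), ahead of MCM7 (116.5 TPM) and MCM5 (102 TPM), and MCM4 came last of the ring (42.7 TPM), while every subunit stayed above the other members. CDT1 (22.5 TPM) then came above CDC45 (19.6 TPM), so that order too rests on the length.

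**Figure D2:**
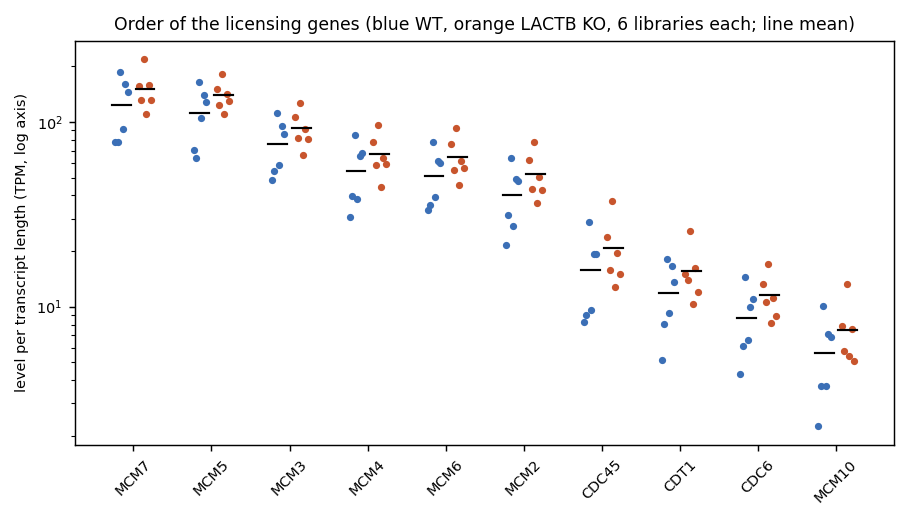
Level per transcript length in TPM (log axis) of the 10 genes in order of their mean, with 6 WT libraries in blue, 6 LACTB KO libraries in orange and a line at each genotype's mean. The ring subunits lie above CDC45, CDT1, CDC6 and MCM10, and the genotypes overlap for every gene.

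Within the ring the proportions were steadier than the levels. MCM7 made up 26.7% ± 1.05 of the summed TPM of the 6 subunits (SD, n = 12 libraries), MCM3 16.5% ± 0.622 and MCM6 11.3% ± 0.415. MCM5 varied most in percentage points, 24.8% ± 2.00, from 21.1% in J2 to 29.2% in K2, while MCM2 (8.91% ± 0.820) varied more relative to its mean. Its mean share was 24.6% ± 2.63 in WT and 24.9% ± 1.35 in LACTB KO (SD, n = 6 libraries each), and MCM2 had 8.73% ± 1.05 and 9.10% ± 0.551. The ring held between 18.7 and 30.0 times the summed TPM of the loaders CDC6 and CDT1, with the highest ratio in J1 and the next highest 24.1 in C2.

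The comparison of genotypes asked whether loss of LACTB moved these genes in iMGLs. No member passed the test. All 10 were measured at a higher level in LACTB KO, by 0.30 (MCM3) to 0.43 (MCM10) on the log2 scale with a median of 0.36, where the median over all 17577 genes was 0.01 and 51.7% of them were higher. With edgeR's quasi-likelihood test on sums per clone (n = 3 against 3 clones) the Benjamini-Hochberg adjusted p was 0.878 for each member. No gene of the 17577 was called at an adjusted p under 0.05 (0%), and 1118 had an unadjusted p under 0.05. Of those 141 were higher in LACTB KO (0.802%), none of them a member. DESeq2 called 171 genes, also none of them a member.

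MCM2 had the smallest p of the members. Its clone levels, as mean CPM over the 2 differentiations, were 40.7, 66.8 and 68.9 in J, K and L (WT). In A, B and C (LACTB KO) they were 79.3, 85.0 and 65.8 CPM. The log2 difference was 0.38 ± 0.21 (SE, edgeR's quasi-likelihood test, adjusted p = 0.878), and clone C lay below K and L. MCM10, with the largest difference, was at 6.11, 13.4 and 13.1 CPM in J, K and L and at 13.6, 18.5 and 11.7 CPM in A, B and C, a log2 difference of 0.43 ± 0.32 (SE).

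MCM5 was the only member with all 3 LACTB KO clones above every WT clone. As mean CPM over differentiations it was at 103, 198.5 and 192 in J, K and L. In A, B and C it was at 209, 219.5 and 193 CPM. On that scale clone C lay below K. The order of clones was taken on mean log2 CPM over differentiations, where C was above K. By that measure 4.20% of 15530 genes had all LACTB KO clones above every WT clone, so the share of the members, 1 of 10, is to be read against that background. The exact two-sided permutation test on these clone means gave p = 0.1 for MCM5, the smallest that 20 ways of dividing 6 clones allow, 0.2 for MCM2, MCM3, MCM4, MCM6, CDC45 and CDT1, and 0.3 for MCM7, MCM10 and CDC6.

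Clone J set much of the size of the difference. It was the lowest clone for all 10 genes, and for each of them A, B and C each exceeded the mean of the WT clones. Without clone J the median difference was 0.13 on the log2 scale (0.08 to 0.17 over the members), against 0.49 without K and 0.49 without L. Leaving out A, B or C gave 0.35, 0.27 and 0.45. The SD of the members' mean log2 CPM was 0.49 between WT clones and 0.13 between LACTB KO clones. In differentiation 1 alone the median was 0.50 and in differentiation 2 alone 0.18, and with the stromal level as a covariate it was 0.33. Clone J also had the lowest sum of 8 hematopoietic progenitor markers, 7.28 CPM in J1 and 6.20 CPM in J2 against 16.4 to 33.4 CPM in the other 10 libraries. The spread of that sum was that of 1 gene, KIT (1.72 to 27.9 CPM), and not of the set. HLF was between 3.26 and 4.78 CPM, and no other gene of the list was above 1.30 CPM in any library. SPINK2 was at 0 counts in all 12 libraries, AVP in 11, CD34 in 3 and GATA2 in 1. The part of these markers in the result was not tested.

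**Figure D3:**
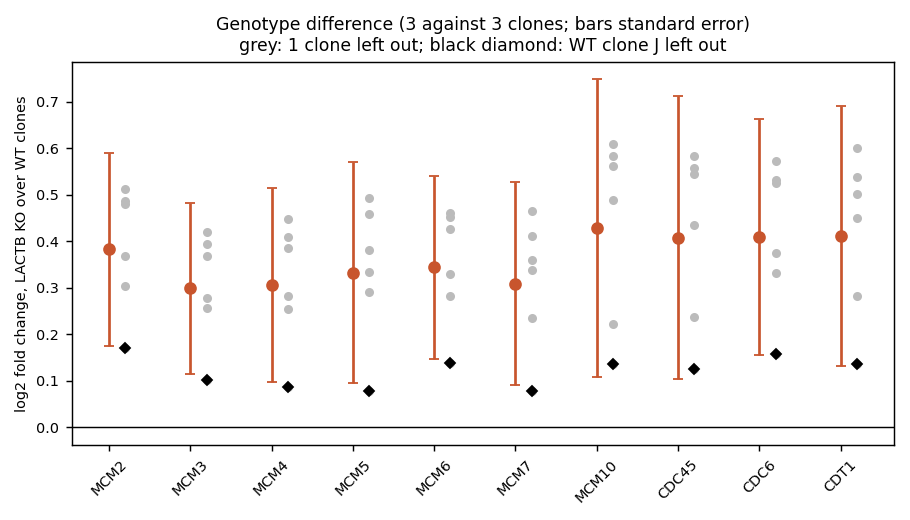
Log2 fold change of each member between LACTB KO and WT clones (vertical axis), with the standard error of the fit on 3 against 3 clones in orange. Grey points leave out 1 clone each and the black diamond leaves out WT clone J, where the values fall to between 0.08 and 0.17.

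Differences among clones of a genotype were tested on the 12 libraries, with differentiation as a covariate. Among WT clones no member was called by edgeR's quasi-likelihood test, while 26 of 15530 genes were (0.167%). At an unadjusted p under 0.05 there was 1 member, MCM5 (adjusted p = 0.173), against 13.7% of all genes. MCM5 was called among WT clones without the filter on low counts (adjusted p = 0.0443), where 405 of 36924 genes were called, and with DESeq2 (adjusted p = 0.00194), where 924 of 15530 were. In J1 and J2 it was at 104 and 102.3 CPM, below every library of K and L. Among LACTB KO clones 6 genes were called (0.0386%) and no member, and 2.17% of genes but no member had an unadjusted p under 0.05.

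The 2 differentiations of each clone were compared within clones. The sample titles number the differentiations and do not say which clones were differentiated together. Libraries of K and B deviated alike in both differentiations (correlations of 0.25 and 0.61), as did those of L and C (0.26 and 0.48). The clones may therefore not be independent in this comparison. All 10 members were measured lower in differentiation 2, by between -0.33 (MCM5) and -0.64 (CDC45) on the log2 scale with a median of -0.41, while the median over all genes was close to 0 (49.2% higher). None was called (edgeR's quasi-likelihood test, clone as a fixed effect, adjusted p from 0.452 to 0.701). No gene of 15530 was called (0%). Unadjusted p was under 0.05 for MCM5 (0.0334) and MCM7 (0.0425), and for 3.89% of all genes in the lower and 6.07% in the higher direction. DESeq2 called 303 genes and no member.

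The clones did not move alike. In clone B the members' ratio of differentiation 2 to 1 had a median of 0.435, and in clone K 0.452, with CDC45 the lowest in both (0.314 and 0.317) and MCM5 the highest (0.555 and 0.607). CDC45 was at 31.2 CPM in B1 and 9.78 CPM in B2, and at 23.4 CPM in K1 and 7.40 CPM in K2. Clones A and C had medians of 0.750 and 0.886, with all 10 genes lower in differentiation 2. Clone L had a median of 1.04 with 6 genes higher and 4 lower, and clone J 1.31 (9 higher and MCM5 lower).

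**Figure D4:**
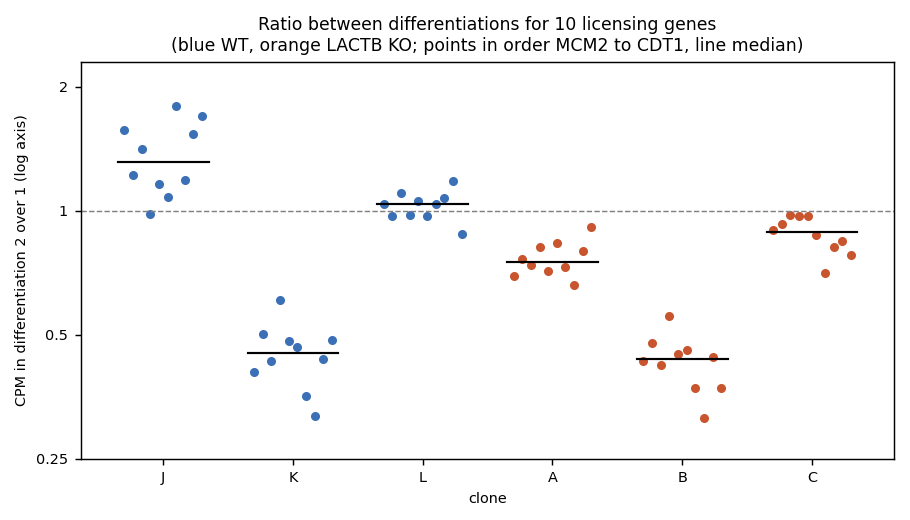
Ratio of CPM in differentiation 2 to differentiation 1 (log axis) for the 10 members in each clone, WT in blue and LACTB KO in orange, with a line at the median and a dashed line at 1. Clones K and B lie near 0.45, clones L and C near 1, and clone J mostly above 1.

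The result depends on which clones enter. Without clone J the median was -0.54, with all 10 members at an unadjusted p under 0.05, as 1678 of all 15817 genes were, and no member called. Without K it was -0.27 and without B -0.26, each with no member under 0.05 unadjusted. In the WT clones alone it was -0.23, and in the LACTB KO clones alone -0.57 with 8 members under 0.05 unadjusted, as 785 of all 15509 genes were. With the stromal level as a covariate the median was -0.40 and all 10 members had an unadjusted p under 0.05, the lowest adjusted p being 0.126. The covariate took the genes under 0.05 unadjusted from 1546 to 2009 of 15530.

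The genotypes were then compared for their difference between differentiations. The interaction was negative for all 10 members, from -0.13 (MCM5) to -0.60 (MCM10) on the log2 scale, meaning a lower ratio of differentiation 2 to 1 in LACTB KO. It was not called for any (edgeR's quasi-likelihood test, adjusted p = 0.999 for each). No gene was called (0% of 15530) and 141 had an unadjusted p under 0.05.

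The rest of the replication pathway was read from lists of genes with related roles. Of the partners in origin licensing, such as the origin recognition complex and geminin, 11 of 14 genes were higher in LACTB KO and 3 lower, with a median log2 difference of 0.09. The 3 with the smallest p were FBXO5, an inhibitor of the anaphase-promoting complex (0.28 ± 0.16, SE), ORC6 (0.24 ± 0.16) and ORC1 (0.34 ± 0.23), all with an adjusted p of 0.878 by edgeR's quasi-likelihood test. MCM8 and MCM9, relatives of the ring subunits that work in recombination, differed by 0.17 ± 0.17 and 0.11 ± 0.15 (SE), and MCMDC2 did not pass the filter. For helicase activation, which holds GINS, the kinase CDC7 with DBF4 and the TOPBP1 group, 17 of 18 genes were higher, with a median of 0.19, TOPBP1 at 0.21 ± 0.12, GINS4 at 0.22 ± 0.14 and POLE2 at 0.41 ± 0.26 (SE).

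Genes of fork synthesis were higher in LACTB KO for 21 of 22, with a median of 0.23. RFC2, of the clamp loader, averaged 45.5 ± 7.58 CPM over the WT libraries and 56.8 ± 8.72 CPM over the others (SD, n = 6 each) and had an unadjusted p of 0.0276 (edgeR, adjusted p = 0.735). POLA2 (0.30 ± 0.13, SE) and RNASEH2A (0.25 ± 0.12) followed it. All 8 genes of nucleotide supply were higher, with a median of 0.21, among them DTYMK (0.21 ± 0.11) and DCK (0.22 ± 0.14). In G1 to S control 17 of 23 were higher and 6 lower, with CCND2, a D-type cyclin, averaging 27.9 ± 38.3 CPM over the WT libraries and 5.84 ± 2.83 CPM over the others (SD, n = 6 each), a log2 difference of -2.23 ± 0.77 (SE, edgeR, adjusted p = 0.726). CDK6 (-0.19 ± 0.10) and TFDP1 (0.18 ± 0.10) came next. No gene of any of these lists was called by edgeR.

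The mitotic genes were measured on the other side of 0 between differentiations, and the difference between the lists was not tested. All 15 were higher in differentiation 2 (14 without the clone in the fit and in WT clones alone, 13 with library size as the only scaling, without clone J and without clone L, and 12 without clone A), by a median of 0.32 on the log2 scale, 7 of them with an unadjusted p under 0.05 and none called, while all 10 licensing genes were lower. CCNB1, the mitotic cyclin, was higher by 0.60 ± 0.07 (SE, edgeR, adjusted p = 0.0906), CENPF by 0.70 ± 0.15 (adjusted p = 0.228) and MKI67 by 0.56 ± 0.16 (adjusted p = 0.318). These 3 have the smallest p of the list in this comparison. Of the mitotic genes 2 were called without the filter on low counts (80 of all 36924 genes) and 3 with DESeq2 (303 of 15530). Without the clone in the fit 1 was called (2 of all 15530 genes), and without clone J 1 (48 of 15817). In helicase activation 16 of 18 genes were lower in differentiation 2 and in fork synthesis 21 of 22, as the licensing genes were.

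The ratio of the summed CPM of the licensing genes to that of the mitotic genes was higher in differentiation 1 in every clone. In A1 it was 2.62, from 980 and 375 CPM, and in A2 0.986, from 757 and 767 CPM. In B1 it was 2.22 and in B2 0.931, in K1 1.76 and in K2 0.981, and in L1 1.54 and in L2 1.03. The gap was smallest in C (1.37 and 1.13) and J (1.04 and 0.832). Clones reached this in different ways, since in L the licensing sum was 797 and 805.5 CPM while the mitotic sum was 519 and 782 CPM, and in K and B the mitotic genes were split, 6 of 15 being higher in differentiation 2.

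**Figure D5:**
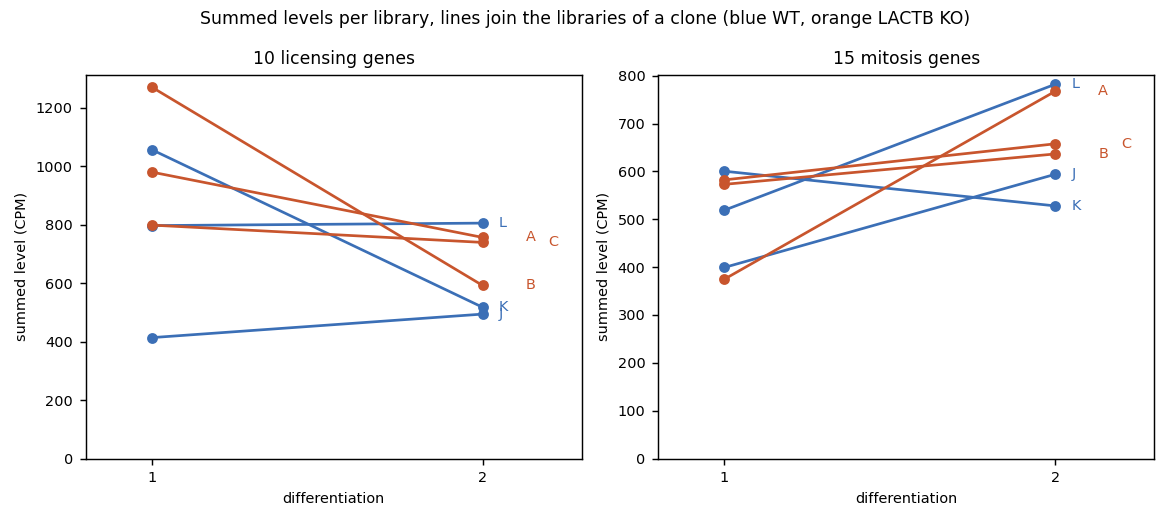
Summed CPM of the 10 licensing genes (left) and of 15 mitosis genes (right) in differentiations 1 and 2, with a line for each clone, WT in blue and LACTB KO in orange. Licensing sums are lower in differentiation 2 for A, B, C and K, while mitosis sums are higher for all clones but K.

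Among all other genes tested, the 5 whose log2 CPM followed the mean of the members most closely over the 12 libraries were RFC5, a clamp loader subunit, CHAF1B, of the chromatin assembly factor, E2F1, CDC25A and DTL, with Pearson correlations of 0.987 to 0.989. Each was lowest in J1 and highest in B1, E2F1 at 10.1 and 43.96 CPM. Their differences between genotypes were 0.31 to 0.38 on the log2 scale (edgeR, adjusted p = 0.878 for each), in the range of the members. The 5 genes were picked by correlation over these same libraries, so a shared order and difference follow from the choice.

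Some members share sequence with other genes. The exons of MCM2 overlap those of a lncRNA on the opposite strand over 1113 bases, 23.6% of its exonic length, and the lncRNA had 17 to 205 counts. MCM7 overlaps AP4M1 on the opposite strand over 392 bases (7.90%), with 497 to 694 counts for AP4M1. The deposited values of MCM2 were fractional in 12 of 12 libraries and those of MCM7 in 8, against at most 1 for any other member. Whether counting used strand is not given in the sources used here, so reads of these genes and their antisense partners may not have been told apart.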

How the data were processed

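RNA-seq of WTC11 iMGLs (12 libraries) was used, and the paper's other experiments were not analysed here. Per the labels, polyA RNA was sequenced in pairs. The authors trimmed adapters, mapped reads to hg38 (GRCh38) using STAR, and deposited unscaled estimated counts for each gene. The counting tool and its strand setting are not given in the sources used here. Since 10.8% to 11.5% of a library's values were not whole, they were rounded before summing by clone. edgeR 4.0.16 in R 4.3.3 fitted quasi-likelihood models after TMM and filterByExpr, with p adjusted by Benjamini-Hochberg over all genes tested (threshold 0.05). Genotypes were compared on 3 against 3 clone sums. Differentiations, their interaction with genotype and clones within a genotype were compared on 12 libraries. The mixed model of the paper (DREAM) was not used here, and limma 3.58.1 voom with clone as a random effect was an alternative, as were DESeq2 1.42.0, other scalings, no filter, a differentiation block, a stromal covariate and leaving out each clone. Log2 CPM used a prior count of 2. TPM used GENCODE version 44, in which 62639 of 62703 identifiers were found. The genotype and differentiation fits were run on simulated counts with known changes larger than those of the members. That check gives no measure of power at the members' size of difference. The members and gene lists were chosen with earlier results of these data known. Named genes were the 10 members, LACTB, up to 3 genes of each list with the smallest p between genotypes, and the 5 genes most like the members, except that 1 gene the rule names is not reported here. Markers, the 3 mitotic genes of the comparison of differentiations and the genes with overlapping exons were named after their values were seen. The depth of 24153233 to 28406943 counts limits precision least for the ring subunits.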

Additional observations from a re-analysis of the deposited data

Results flagged for a closer look

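In library B1, MCM10 was at 27.1 CPM and CDT1 at 30.4 CPM, each set apart from the other 5 LACTB KO libraries, whose highest were 15.7 and 17.7 CPM. The gap took up 0.657 and 0.665 of the range of the 6 libraries (Dixon's ratio, past its 95% critical value). These are 2 of 20 sets of 6 libraries looked at (10 genes in 2 genotypes), and for independent sets chance alone gives about 1 in 20. The sets are not independent, since the 10 genes moved together and both flags fall on B1. The 2 flags therefore cannot be weighed against that share. The ratio was taken on CPM and not on the log2 scale.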

How the results depend on the processing

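All 10 members stayed higher in LACTB KO and lower in differentiation 2 under each of the 15 alternatives to each comparison, and none was called in either. The members moved together across libraries and the alternatives reuse the same libraries, so these are not independent results. Over the alternatives the log2 differences ran from 0.08 to 0.61 (adjusted p from 0.487 to 0.999) between genotypes and from -0.84 to -0.11 (adjusted p from 0.126 to 0.99) between differentiations. Among WT clones 1 member, MCM5, was called without the filter on low counts and 1, again MCM5, with DESeq2, and the cause was not tested. Over all genes, calls among WT clones were 26 in the comparison reported, 405 without the filter and 924 with DESeq2. With differentiation as a replicate block the median between genotypes was 0.34, and without the clone as a replicate block the median between differentiations was -0.46, with no change in calls of members. Libraries of the same differentiation and different genotype had a mean correlation of deviations of 0.04 over 18 pairs, 5 of them over 0.1. Of these, 4 came from the same clones in both differentiations, K with B (0.25 and 0.61) and L with C (0.26 and 0.48). Over all genes, calls between genotypes were 0 in the comparison reported, 2 without the filter and 171 with DESeq2, and between differentiations 0, 80 and 303, with 48 without clone J and 10 in LACTB KO clones alone. With 3 clones a genotype, 1 clone (J) set much of the size of the difference between genotypes (standard errors of the members were 0.18 to 0.32 on the log2 scale).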
